A study of Mus musculus with 78 samples.

Results

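The 10 genes described here, Tcf23, Nrm, Nxnl2, Zbtb7c, Mob2, Ptp4a3, Zbtb46, Adam15, Caskin2 and Ankrd33b, are a named list of genes picked because they were lower in the ligated left common carotid artery (LCA) than in the right common carotid artery (RCA) at all or at early times after surgery. They are 10 of the 17097 genes with a named probe set on the array, and all 10 were among the 11344 genes tested. Each gene was read from the probe set annotated to that symbol alone, taking the one with the highest mean over the 78 arrays. Because the difference between the arteries chose the list, that difference is described below without a test. The choice fixed a fall at all or at early times. It did not fix how the depth changed from time to time, which artery moved, or what atorvastatin did to it.

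In all mice the LCA was partially ligated: several of its outflow branches were tied, which leaves slow, oscillating flow in the vessel, while the RCA of the same mouse stayed unligated and served as its control. Mice received atorvastatin (10 mg/kg body weight per day by mouth) or vehicle, beginning 2 days before surgery, and RNA enriched for endothelium was flushed from both arteries at 12 h, 24 h, 48 h or 2 weeks. The 78 arrays came from 39 mice and formed 16 groups, by artery, treatment and time, of 5 arrays each, except that both arteries of the atorvastatin 48 h group had 4. Strain, age and sex were not given in the sources used here, every mouse was operated on, and no group without surgery was analysed here. Values are log2 expression levels, so that a difference of -1 is a level reduced to 50% of the control artery.

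Arterial endothelium senses the friction of flowing blood. Steady flow sustains a quiescent program led by the transcription factors Klf2 and Klf4, and disturbed flow lowers it and favours inflammation and proliferation. The 10 genes fall into several roles. Tcf23 is a basic helix-loop-helix (bHLH) protein reported to restrain E-protein transcription factors, and Zbtb7c and Zbtb46 are BTB zinc finger transcription factors, of which Zbtb46 is best known as a marker of classical dendritic cells and is also expressed by endothelium. Nrm encodes nurim, a protein of the inner nuclear membrane. Nxnl2 is a thioredoxin-like protein known from the retina. Mob2 binds the NDR protein kinases. Ptp4a3 encodes the phosphatase PRL-3, which promotes cell motility. Adam15 is a cell-surface metalloprotease with a disintegrin domain, Caskin2 is a scaffold protein with ankyrin repeats and an SH3 domain, and Ankrd33b is an ankyrin repeat protein of little known function.

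Because the genes were lower together, the sequences in front of their start sites were examined for short motifs; RefSeq promoter sequences (GRCm38.p6) were matched for 7 of the 10 genes. The 250 bases before the annotated start are shown for Tcf23, Nrm and Nxnl2, 3 genes with a deep fall already at 12 h, and for Ankrd33b, whose fall was deepest at 2 weeks. Capitals mark CACCC, the core letters recognised by Krüppel-like factors, or its reverse complement GGGTG. The sequences run 5′ to 3′ on the gene's strand: Tcf23 at chr5:30968427-30968676 (plus strand), Nrm at chr17:35861068-35861317 (plus strand), Nxnl2 at chr13:51170775-51171024 (plus strand) and Ankrd33b at chr15:31367760-31368009 (minus strand).
Tcf23: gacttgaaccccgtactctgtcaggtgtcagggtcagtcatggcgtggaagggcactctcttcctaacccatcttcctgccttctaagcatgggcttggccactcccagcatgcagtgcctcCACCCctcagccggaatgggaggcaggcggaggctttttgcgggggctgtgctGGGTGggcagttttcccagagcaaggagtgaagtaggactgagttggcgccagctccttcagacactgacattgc
Nrm: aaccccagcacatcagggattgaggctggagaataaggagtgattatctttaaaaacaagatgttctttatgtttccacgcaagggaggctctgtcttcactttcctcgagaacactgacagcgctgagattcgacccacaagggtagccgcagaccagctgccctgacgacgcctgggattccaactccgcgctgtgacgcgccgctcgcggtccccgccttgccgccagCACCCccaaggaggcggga
Nxnl2: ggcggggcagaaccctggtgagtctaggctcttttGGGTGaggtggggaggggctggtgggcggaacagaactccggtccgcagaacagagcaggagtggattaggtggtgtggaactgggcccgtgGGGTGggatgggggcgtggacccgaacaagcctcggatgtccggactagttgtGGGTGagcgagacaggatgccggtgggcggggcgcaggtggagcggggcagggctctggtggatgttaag
Ankrd33b: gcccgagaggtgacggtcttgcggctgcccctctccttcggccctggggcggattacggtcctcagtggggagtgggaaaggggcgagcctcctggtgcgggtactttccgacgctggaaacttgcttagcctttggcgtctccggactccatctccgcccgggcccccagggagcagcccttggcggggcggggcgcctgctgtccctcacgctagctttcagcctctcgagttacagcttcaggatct
On both strands, CACCC was found 2 times before Tcf23, 1 time before Nrm, 3 times before Nxnl2 and not before Ankrd33b. It was also present 3 times before Zbtb46, 1 time before Adam15 and in 2 of the 4 annotated start sites of Mob2. The motif is common: 52% of 32841 promoter sequences of this length held it. The ETS-type letters GGAAG were found before Tcf23, Adam15 and 3 Mob2 start sites (64.1% of all promoters), the E-box CANNTG before Tcf23, Nrm, Nxnl2, Zbtb46 and 1 Mob2 start site (66.2%), and ACGTG before 3 Mob2 start sites alone (16.6%). Those 3 Mob2 windows overlap and share the same single ACGTG match, and 2 of them share a GGAAG match. The MEF2 motif was in none of the 10 member sequences and in 2.92% of all. The window before Ankrd33b held none of the 5 motifs. These are matches of letters, not known binding sites.

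The falls, for which the list was picked at all or at early times, were present at the first time examined and in nearly every mouse. Of the 10 genes, 7 (Tcf23, Nxnl2, Zbtb7c, Zbtb46, Adam15, Caskin2 and Ankrd33b) were lower in the LCA in 39 of 39 mice, Nrm and Mob2 in 38, and Ptp4a3 in 35. Among all tested genes, 0.644% were lower in every mouse of all 8 groups. By time, 9, 10, 8 and 10 of the 10 genes were lower in every vehicle mouse at 12 h, 24 h, 48 h and 2 weeks, where the share of all tested genes was 5.61%, 14.7%, 15.5% and 17.9%. In atorvastatin mice the counts were 10, 10, 10 and 9, against 4.11%, 11.8%, 17.7% and 21.2%. Nothing is read from these counts, since the list was chosen on this difference. The median of the 10 mean differences ran -1.43, -2.25, -1.28 and -1.96 with vehicle and -1.68, -2.14, -1.96 and -2.003 with atorvastatin, while the median over all tested genes lay between -0.03 and 0.03 in all 8 groups.

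**Figure D1:**
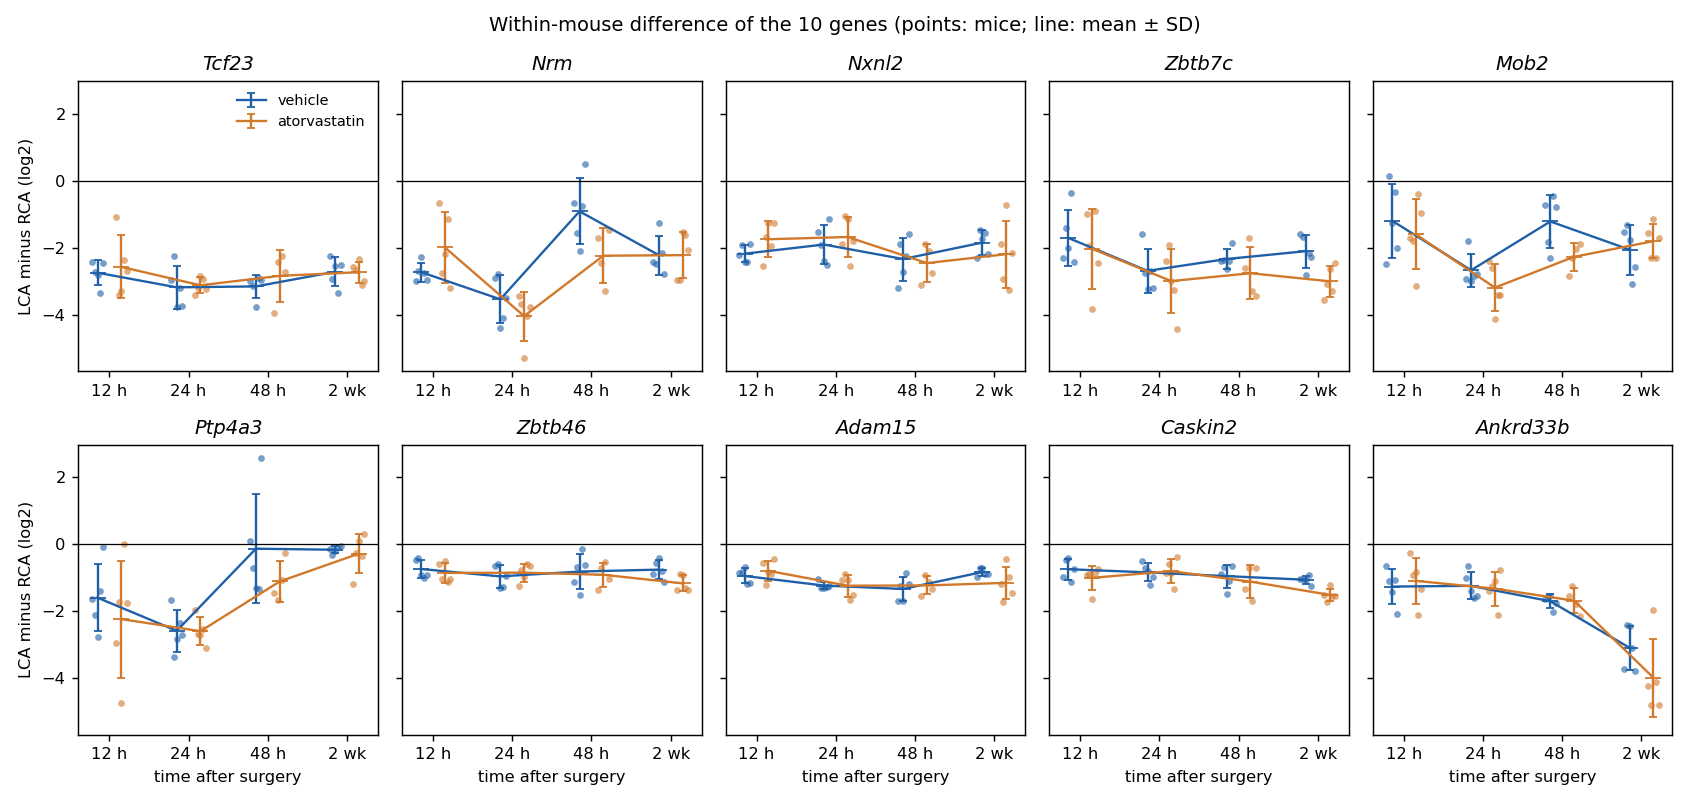
LCA minus RCA in log2 units for each of the 10 genes at 12 h, 24 h, 48 h and 2 weeks after surgery; points are mice (5 per group, 4 for atorvastatin 48 h), lines join group means and bars are SDs, in blue for vehicle and orange for atorvastatin. Tcf23, Nxnl2, Zbtb7c, Zbtb46, Adam15, Caskin2 and Ankrd33b stay below 0 in all mice, Ptp4a3 returns to near 0 by 2 weeks and Ankrd33b is lowest at 2 weeks.

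Several courses could be told apart in the plot of differences by mouse. Tcf23, Nxnl2, Zbtb46 and Adam15 kept most of their difference throughout, with at least 62.1% of the deepest group mean still present at 2 weeks and 64.1% to 93.2% already present at 12 h. Caskin2 was lowest at 2 weeks in both treatments, with 70.3% of that difference at 12 h with vehicle and 66.3% with atorvastatin. Zbtb7c, Nrm and Mob2 were lowest at 24 h with vehicle and varied more between times. Ptp4a3 closed, with 6.39% of its deepest difference left at 2 weeks with vehicle and 10.8% with atorvastatin. Ankrd33b opened further with time, from 40.9% of its deepest difference at 12 h to the full depth at 2 weeks with vehicle, and from 27.5% with atorvastatin. "Sustained" therefore does not describe Ptp4a3, and for Ankrd33b it leaves out a late deepening.

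Among the transcription regulators, Tcf23 had group differences of -2.58 to -3.19, a narrow range for a deep fall. At 12 h in vehicle mice the LCA read 4.78, 4.51, 4.08, 4.23 and 3.995 in mice 1 to 5, against 7.20, 7.22, 6.90, 7.58 and 6.45 in the RCA of the same mice. No LCA value reached any RCA value, and the mean difference was -2.75 ± 0.38 (SD, n = 5), a level that read 14.9% of the control. The difference was -3.19 ± 0.63 at 24 h, -3.16 ± 0.35 at 48 h and -2.72 ± 0.44 at 2 weeks. With atorvastatin it was -2.58 ± 0.94, -3.12 ± 0.23, -2.84 ± 0.77 (n = 4) and -2.74 ± 0.32, and the arteries did not overlap at any time in either treatment. The LCA value lay below the median of its own array in 34 of 39 mice, including 4 of 5 vehicle mice at 12 h and every mouse at 48 h and 2 weeks; these medians were 4.59 to 4.77. An array compresses differences near its floor, so the falls of Tcf23 can be larger than they read, and changes of their depth between times can be hidden.

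Zbtb7c differed by -1.71 ± 0.84 at 12 h, -2.70 ± 0.67 at 24 h, -2.34 ± 0.29 at 48 h and -2.11 ± 0.50 at 2 weeks with vehicle (SD, n = 5). With atorvastatin the differences were -2.04 ± 1.199, -3.00 ± 0.96, -2.77 ± 0.78 (n = 4) and -3.01 ± 0.46. At 2 weeks the LCA read 5.81, 6.41, 4.89, 6.16 and 5.30 in vehicle mice 1 to 5 and 4.59, 4.64, 5.08, 5.14 and 5.88 in atorvastatin mice 6 to 10. The LCA ranges of the treatments overlapped, and each lay wholly below its RCA range. The spread at 12 h was wide: differences ran from -2.43 to -0.38 among vehicle mice and from -3.84 to -0.92 among atorvastatin mice. A second, dimmer Zbtb7c probe set was above the array median on 3 arrays. Its group means were lower by -0.20 to -0.53 with vehicle and by -0.23 to -0.77 with atorvastatin. It was lower in 3, 5, 4 and 4 of 5 vehicle mice at the 4 times, and in 4 atorvastatin mice at each time.

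Zbtb46 had a shallower difference that, in its representative probe set, changed little over 2 weeks. Its means were -0.74 ± 0.28, -0.96 ± 0.33, -0.82 ± 0.52 and -0.76 ± 0.29 with vehicle and -0.86 ± 0.29, -0.85 ± 0.27, -0.91 ± 0.37 (n = 4) and -1.17 ± 0.24 with atorvastatin, or 44.5% to 59.9% of the control artery. At 48 h with vehicle the LCA read 6.99, 7.61, 7.27, 7.97 and 7.18 and the RCA 8.12, 8.29, 8.77, 8.13 and 7.78. Mouse 4 had the smallest difference of that group, -0.16, and the arteries overlapped as groups although each mouse was lower. Zbtb46 also marks dendritic cells. Of the other dendritic cell markers, 3 of 3 tested rose in the LCA at 2 weeks and 2 at 48 h, in both treatments. At 2 weeks their mean over 4 measured markers was 2.06 ± 0.52 higher with vehicle and 2.01 ± 0.31 higher with atorvastatin. At 12 h and 24 h 0 of 3 rose or fell. Their mean then differed by 0.05 and 0.01 with vehicle and by 0.14 and 0.15 with atorvastatin, at low group levels of 3.15 to 3.37. The part of dendritic cells in the Zbtb46 difference was not tested. Of the other 3 probe sets of Zbtb46, the 2 brighter ones were also lower in every group mean, by -0.57 to -1.42 with vehicle and by -0.54 to -1.67 with atorvastatin. Their course was not flat: both were lowest at 24 h. With vehicle they went from -0.63 and -0.57 at 12 h to -1.42 and -1.17 at 24 h. With atorvastatin they went from -0.54 and -0.80 to -1.67 and -1.35. The dimmest one was lower in 7 of 8 group means, by -0.23 to -0.69, and 0.06 ± 0.24 higher at 2 weeks with vehicle, where 2 of 5 mice were lower.

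The difference of Nrm varied widely between times. Its difference was -2.73 ± 0.29 at 12 h and -3.54 ± 0.71 at 24 h with vehicle, the latter 8.58% of the control, and -1.996 ± 1.06 and -4.05 ± 0.73 with atorvastatin. At 48 h the vehicle LCA read 6.95, 6.14, 6.94, 6.11 and 6.67 and the RCA 7.62, 7.71, 9.03, 6.86 and 6.18. The arteries overlapped, mouse 5 was higher in the LCA by 0.49, and the mean difference was -0.92 ± 0.98, or -1.27 without that mouse. By 2 weeks the difference was -2.22 ± 0.58 with vehicle and -2.23 ± 0.70 with atorvastatin, and the arteries were apart again. In the vehicle LCA itself the gene climbed from 4.54 ± 0.37 at 12 h through 5.46 ± 0.24 at 24 h to 6.56 ± 0.41 at 48 h, each group wholly above the one before, and then stood at 5.58 ± 0.26 at 2 weeks. The atorvastatin LCA did not repeat this climb: its means were 5.72 ± 0.49, 5.31 ± 1.05, 6.15 ± 0.82 (n = 4) and 5.59 ± 0.30.

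Nxnl2 read 22% of the control level at 12 h with vehicle, a difference of -2.18 ± 0.26 (SD, n = 5). Its later means were -1.91 ± 0.58, -2.34 ± 0.64 and -1.85 ± 0.37, and with atorvastatin -1.75 ± 0.53, -1.68 ± 0.61, -2.46 ± 0.58 (n = 4) and -2.20 ± 0.997. The arteries did not overlap in any group. The level of both arteries drifted down: the vehicle RCA read 6.51, 6.48, 6.62, 6.71 and 6.06 at 12 h and 5.66, 5.38, 4.88, 5.30 and 5.53 at 2 weeks, and the LCA went from 4.29 ± 0.15 to 3.50 ± 0.32. The LCA value lay below the median of its own array in 34 of 39 mice, among them all 5 vehicle mice at 12 h, so the differences of this gene can be compressed at every time and the remaining share of the control level can be lower than it reads. A second, dimmer Nxnl2 probe set, never above the array median, was lower by -0.16 to -0.71 in the group means.

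Mob2 was lowest at 24 h in both treatments. At 12 h the vehicle LCA read 4.38, 6.22, 4.93, 6.11 and 4.93 and the RCA 6.88, 6.08, 6.21, 6.45 and 6.93, so that mouse 2 was slightly higher in the LCA (0.14) and mouse 1 lower by 2.50 log2 units. At 24 h the LCA was 4.51, 5.38, 5.31, 5.08 and 4.49 and the RCA 7.44, 7.19, 8.32, 7.93 and 7.27, with no overlap. The mean differences were -1.19 ± 1.11, -2.68 ± 0.49, -1.22 ± 0.80 and -2.06 ± 0.75 with vehicle. They were -1.60 ± 1.04, -3.20 ± 0.70, -2.28 ± 0.42 (n = 4) and -1.81 ± 0.51 with atorvastatin. The LCA means stayed within 4.66 to 5.32 over all 8 groups, and the RCA means ranged from 6.17 to 7.86. The LCA value lay below the median of its own array in 10 of 39 mice, among them 2 of 5 at 24 h in each treatment. Changes within the LCA can therefore be compressed.

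Ptp4a3 was the gene whose arteries met. Its differences were -1.60 ± 0.99 at 12 h and -2.58 ± 0.63 at 24 h with vehicle, and -2.24 ± 1.75 and -2.60 ± 0.42 with atorvastatin. At 2 weeks the vehicle LCA read 6.52, 6.48, 6.05, 6.29 and 6.46 and the RCA 6.66, 6.80, 6.26, 6.38 and 6.51, a difference of -0.17 ± 0.11 with overlapping groups. In the atorvastatin mice at 2 weeks the difference was -0.28 ± 0.58, with 2 of 5 mice higher in the LCA. The means converged from both sides between 12 h and 2 weeks. The LCA mean went from 5.62 to 6.36 with vehicle and from 4.94 to 6.51 with atorvastatin. The RCA mean went from 7.22 through 8.36 at 24 h to 6.52 with vehicle, and from 7.18 through 8.35 to 6.79 with atorvastatin. Between 12 h and 2 weeks only the RCA groups separated with vehicle, and only the LCA groups with atorvastatin. At 48 h with vehicle the mean was -0.13 ± 1.62, over differences of 0.09, -0.71, -1.30, -1.33 and 2.58. Mouse 5, whose RCA read 3.32, set that value. It was -0.81 without mouse 5, and 0.01, 0.16 or 0.17 without mouse 2, 3 or 4. A second Ptp4a3 probe set, never above the array median, had group means between -0.42 and 0.06. It was lower by -0.42 ± 0.21 at 12 h and -0.29 ± 0.17 at 24 h with atorvastatin, in 5 of 5 mice each, and by -0.07 ± 0.43 and -0.06 ± 0.35 with vehicle, in 3 of 5 mice each.

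**Figure D2:**
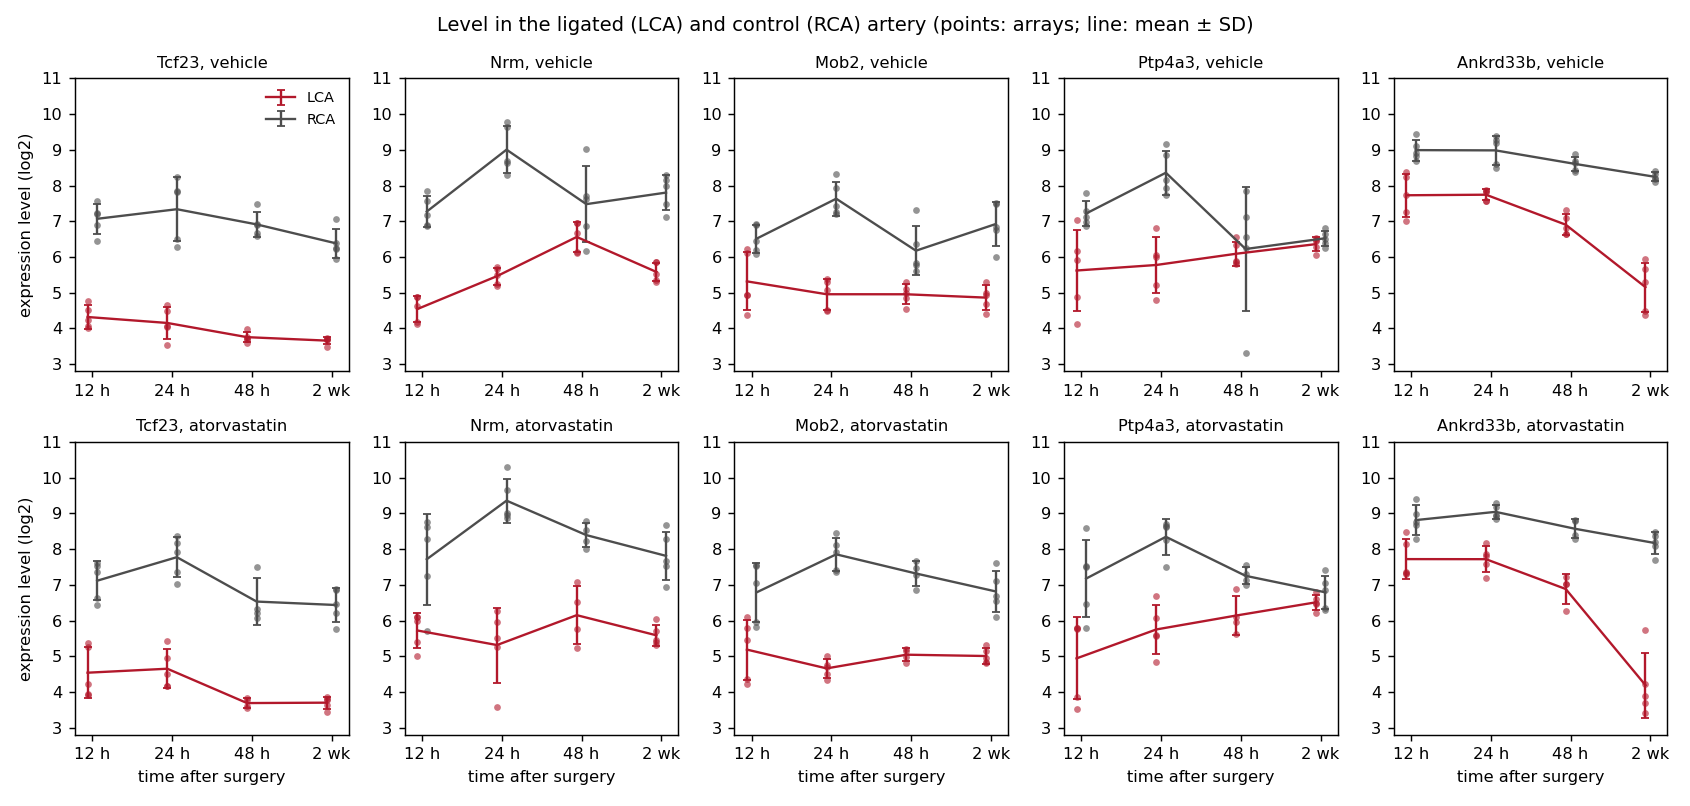
Expression level (log2) of 5 of the genes in the LCA (red) and RCA (grey) at each time, with vehicle above and atorvastatin below; points are arrays, lines join means and bars are SDs. The RCA of Nrm, Mob2 and Ptp4a3 is highest at 24 h, the arteries of Ptp4a3 meet at 2 weeks, and the LCA of Ankrd33b drops from 6.90 to 5.15 with vehicle between 48 h and 2 weeks.

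Adam15 was lower by -0.95 ± 0.22, -1.23 ± 0.11, -1.34 ± 0.35 and -0.83 ± 0.12 with vehicle, and by -0.79 ± 0.31, -1.24 ± 0.33, -1.23 ± 0.27 (n = 4) and -1.15 ± 0.49 with atorvastatin. The spread at 24 h with vehicle was the narrowest of the gene's 8 groups: the differences were -1.04, -1.31, -1.30, -1.27 and -1.24. The arteries did not overlap in any group. The representative probe set carries the suffix used where probes may also match other sequences. A second Adam15 probe set without that suffix gave larger differences, from -1.11 to -2.17 in the 8 group means, and was lower in 39 of 39 mice. The 2 dimmest Adam15 probe sets had group means of -0.24 to -1.19 and of -0.03 to -1.85. Both were weakest at 12 h with vehicle, where 3 of 5 and 2 of 5 mice were lower.

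Caskin2 became gradually lower with vehicle. Its means were -0.75 ± 0.31, -0.84 ± 0.27, -0.95 ± 0.34 and -1.06 ± 0.12 with vehicle and -1.003 ± 0.35, -0.81 ± 0.36, -1.12 ± 0.48 (n = 4) and -1.51 ± 0.18 with atorvastatin. At 2 weeks the differences were -1.03, -1.03, -1.08, -0.92 and -1.25 in vehicle mice and -1.50, -1.74, -1.23, -1.54 and -1.55 in atorvastatin mice. The smallest fall among the atorvastatin mice, -1.23, lay just inside the largest among the vehicle mice, -1.25.

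In its representative probe set, Ankrd33b was alike at 12 h and 24 h and then fell further. Its vehicle LCA read 8.25, 7.74, 7.25, 8.38 and 7.02 at 12 h, 6.81, 7.10, 7.33, 6.65 and 6.63 at 48 h and 4.49, 5.93, 5.65, 5.30 and 4.38 at 2 weeks. The 48 h and 2-week values did not overlap. The RCA moved much less, from 8.99 ± 0.30 at 12 h to 8.24 ± 0.12 at 2 weeks, so the differences were -1.26 ± 0.53, -1.24 ± 0.40, -1.70 ± 0.20 and -3.09 ± 0.66. With atorvastatin they were -1.09 ± 0.68, -1.33 ± 0.50, -1.69 ± 0.38 (n = 4) and -3.98 ± 1.16, leaving 11.7% of the control level at 2 weeks with vehicle and 6.33% with atorvastatin. At 2 weeks the LCA lay below the median of its own array in 2 of 5 vehicle and 4 of 5 atorvastatin mice, where the reading is compressed. The other 2 probe sets of the gene were also lowest at 2 weeks, at -2.81 and -2.51 with vehicle and -3.21 and -2.63 with atorvastatin. The dimmer of these was not alike at the first times. It went from -0.66 at 12 h to -1.865 at 24 h with vehicle and from -1.08 to -1.53 with atorvastatin.

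Part of the 24 h depth lay in the control artery. Averaged over both treatments, the RCA at 24 h stood above the RCA at 12 h by 1.69 (SE 0.33) for Nrm, by 1.36 (SE 0.28) for Zbtb7c, by 1.16 (SE 0.35) for Ptp4a3 and by 1.09 (SE 0.25) for Mob2. For Nrm the vehicle RCA read 7.17, 7.57, 6.90, 6.86 and 7.85 at 12 h and 8.63, 8.28, 9.64, 9.78 and 8.69 at 24 h, with no overlap. The other 6 genes differed by -0.26 to 0.46 between these times. By 2 weeks the RCA was lower than at 12 h for 7 genes, from -0.16 (SE 0.12) for Zbtb46 to -0.87 (SE 0.16) for Nxnl2, and higher for Zbtb7c, Nrm and Mob2 (0.22 to 0.58). All 10 genes passed limma's F test for a change of the RCA over the 4 times, as did 37.4% of all tested genes; the RCA is one side of the difference that chose the list, so nothing is read from that count. RNA integrity moved over the same interval: the 3′ minus 5′ difference of the Gapdh control probe sets, which grows as RNA is shortened, averaged 4.74 in the vehicle RCA at 12 h and 4.04 at 24 h (no overlap), and 4.21 and 4.10 in the atorvastatin RCA. In the LCA it was 4.82 and 4.98 with vehicle and 4.88 and 4.56 with atorvastatin. Its part in the differences at 24 h was not tested.

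Single arrays weighed on several genes at the same time. The RCA of vehicle mouse 5 at 48 h held the lowest value of its group for 9 of the 10 genes, and the RCA of vehicle mouse 3 the highest for 9 of the 10. In the former the mean of the endothelial markers was 9.37, against 9.73 to 9.83 in the other 4 RCA arrays, and the Gapdh end difference was 4.66 against 4.15 to 4.35. The RCA of atorvastatin mouse 8 at 2 weeks was likewise lowest for 9 of the 10 genes, and that mouse had the smallest fall of its group for 7. Its endothelial marker mean, 9.66, lay within the range of the other 4 arrays, 9.65 to 9.87, while its Gapdh end difference was the highest of the group, 4.29 against 3.44 to 4.12. The part of RNA integrity in its values was not tested. Its Ankrd33b difference was -1.97 where the other mice read -4.12 to -4.80, and without it the group mean was -4.48. The ranks of these arrays were counted over the 10 genes only, with no share over all tested genes beside them. Whether the arrays stood apart for all genes was therefore not tested, and nothing is read from these counts.

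No effect of atorvastatin on the 10 genes passed a test across all genes. In limma models of the LCA minus RCA difference, 0 of the 10 genes passed a Benjamini-Hochberg adjusted p of 0.05 at 12 h, 24 h, 48 h, 2 weeks or in the mean over the 4 times, where 0.00882%, 0.0%, 0.0%, 0.0176% and 0.0% of all tested genes did. Unadjusted p-values were under 0.05 for 0, 0, 2, 2 and 1 of the genes. In the RCA alone 0 of 10 passed in the same 5 comparisons (0.0441%, 0.0%, 0.0%, 0.00882% and 0.0176% of all genes), with 0, 0, 1, 0 and 1 under 0.05 unadjusted. In the LCA alone 0 of 10 passed (0.0% of all genes in each comparison), with 1, 1, 0, 1 and 0 under 0.05 unadjusted. Each artery's values also entered the difference that chose the list.

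**Figure D3:**
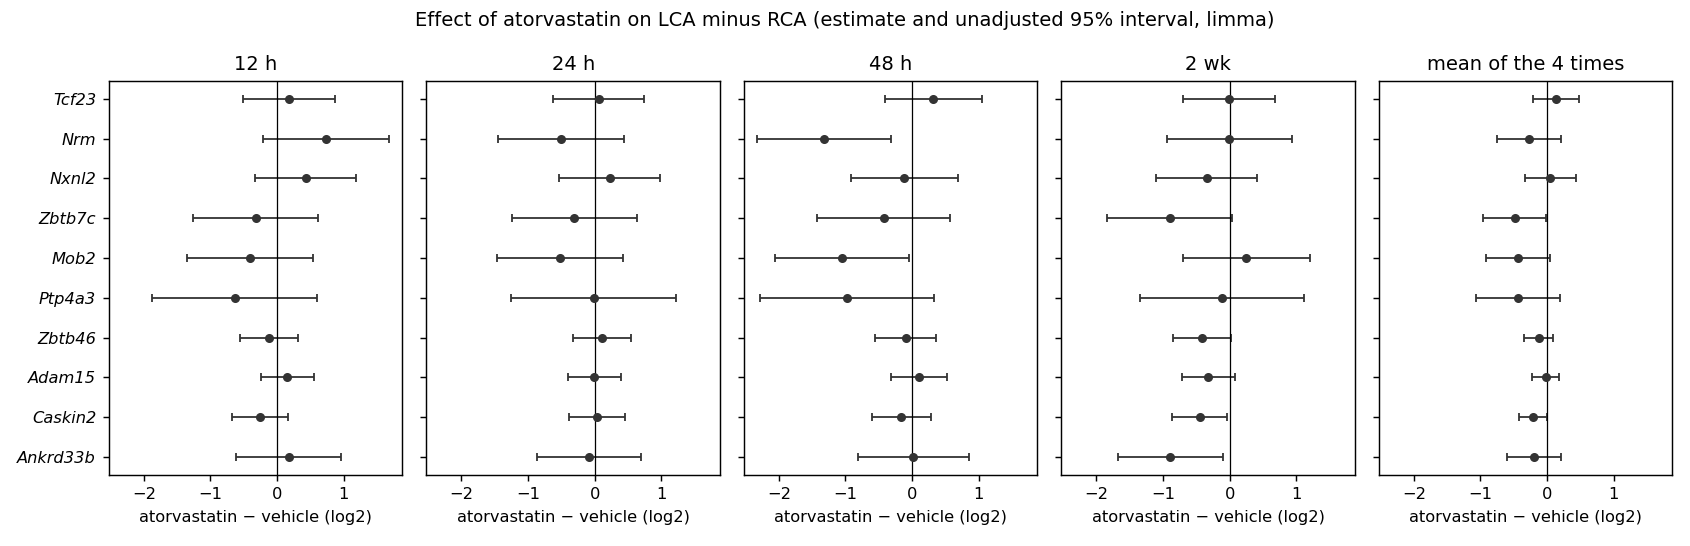
Atorvastatin minus vehicle for the LCA minus RCA difference (log2) of each gene at 4 times and in their mean; points are limma estimates and bars unadjusted 95% confidence intervals. Nrm and Mob2 at 48 h, Caskin2 and Ankrd33b at 2 weeks and Zbtb7c in the mean have intervals below 0, and no gene passes after adjustment over all genes.

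The widest treatment estimates came at 48 h. Nrm differed more between arteries with atorvastatin by -1.32 (SE 0.49, unadjusted 95% interval -2.33 to -0.32, limma adjusted p = 0.95) and Mob2 by -1.05 (SE 0.50, interval -2.06 to -0.04, adjusted p = 0.95). Both sat mainly in the control artery, where Mob2 read 7.67, 7.47, 7.26 and 6.87 in the 4 atorvastatin mice and 5.82, 6.36, 7.31, 5.76 and 5.62 in the 5 vehicle mice. That RCA difference was 1.14 (SE 0.37, limma adjusted p = 0.33), and the groups overlapped through vehicle mouse 3. Without vehicle mouse 5 the vehicle difference of Nrm at 48 h was -1.27 rather than -0.92, against -2.24 with atorvastatin. For Mob2 it was -1.41 to -0.95 without 1 vehicle mouse, against -2.28 with atorvastatin. At 2 weeks Ankrd33b was -0.89 (SE 0.39, interval -1.68 to -0.10, limma adjusted p = 1.0), or -1.39 without atorvastatin mouse 8 (limma adjusted p = 0.112). Caskin2 was -0.45 (interval -0.87 to -0.04, adjusted p = 1.0). Zbtb7c was -0.49 in the mean over times (interval -0.97 to -0.01, limma adjusted p = 1.0). In the LCA alone, Nrm was higher with atorvastatin at 12 h: it read 5.01, 5.998, 6.09, 6.11 and 5.40 in mice 6 to 10 and 4.19, 4.88, 4.62, 4.11 and 4.89 in vehicle mice 1 to 5. These groups did not overlap, and the difference of 1.18 (interval 0.50 to 1.87) had a limma adjusted p of 0.553. In the mean over times the intervals of the 10 genes ran from -1.06 to 0.48, so effects within those intervals could not be resolved with these numbers of mice. For Adam15 the interval was narrow, -0.22 to 0.19, and for Zbtb46 it was -0.35 to 0.09.

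The RNA came from a flush of the vessel, so markers of other cells were read beside the genes. In bulk RNA, fewer cells of a type and less RNA per cell cannot be told apart. Of the 14 endothelial markers, 13 were above the array median on all 78 arrays and Kdr, encoding a VEGF receptor, on 54. Their mean differed between the arteries by -0.03 to -0.34 over the 8 groups. In the limma model of the LCA minus RCA difference, the share of all tested genes called higher in the LCA was 1.31%, 7.19%, 20.8% and 15.5% with vehicle and 0.758%, 7.29%, 16.6% and 14.5% with atorvastatin at 12 h, 24 h, 48 h and 2 weeks. The share called lower was 1.08%, 7.09%, 15.4% and 12.3% with vehicle and 0.926%, 5.8%, 15.2% and 15.4% with atorvastatin. Of the 14 endothelial markers 1, 3, 6 and 5 fell and 0, 1, 3 and 3 rose with vehicle at the 4 times, and 1, 2, 8 and 6 fell and 0, 2, 4 and 3 rose with atorvastatin. The difference relative to the endothelial markers other than Icam2 and Cldn5 left the median of the 10 genes at -1.27 to -2.13. Keeping those 2 markers in was not compared. A median does not show the shallower genes, such as Zbtb46, whose unadjusted group means were -0.74 to -1.17. In single mice the mean of all 14 endothelial markers differed by as much as -0.76 (12 h with atorvastatin). The part of endothelial content in the differences of single genes was not tested. Lymphatic endothelial markers were lower in the LCA in several groups: their mean over 4 markers differed by -0.64 ± 0.43 at 24 h with atorvastatin, by -0.65 ± 0.38 at 2 weeks with vehicle and by -0.999 ± 0.17 at 2 weeks with atorvastatin, below 0 in every mouse of those groups, and by -0.27 to 0.18 in the other 5 groups. Prox1, the defining transcription factor of that cell type, was never above the array median. Of the 3 tested lymphatic markers 0, 1, 0 and 2 fell with vehicle and 0, 1, 1 and 1 with atorvastatin, and 1 rose at 48 h with atorvastatin; their part in the differences of the 10 genes was not tested. Markers of several other cell types were higher at the later times: of the 9 macrophage markers 6 rose in the LCA at 48 h and 9 at 2 weeks with vehicle (8 and 9 with atorvastatin), and 4 of 4 neutrophil markers rose at 48 h in both treatments. Of the 5 tested smooth muscle markers 5 rose at 2 weeks in both treatments, and 4 and 2 of 5 T cell markers rose at 2 weeks with vehicle and atorvastatin. Of the 7 fibroblast markers 0 rose and 2 fell at 48 h, and 3 rose and 2 fell at 2 weeks, in both treatments. No adipocyte marker passed, and their mean differed by -0.99 ± 0.99 at 48 h and -0.94 ± 2.20 at 2 weeks with atorvastatin. The 1 tested erythroid marker fell at 2 weeks with atorvastatin. In that group the skeletal muscle mean differed by -1.145 ± 2.25, with -5.16 in 1 mouse. At 12 h no macrophage, neutrophil, smooth muscle or T cell marker passed, and the neutrophil mean was 1.002 ± 0.87 higher in the LCA with atorvastatin (0.014 to 2.29 over the mice) and 0.24 ± 0.45 higher with vehicle. The deepening of Ankrd33b came at 2 weeks together with the macrophage and smooth muscle markers. In vehicle mouse 2 at 2 weeks the smooth muscle difference was -0.08. The Ankrd33b difference of that mouse was -2.40, the smallest fall of its group, whose mean was -3.09. Atorvastatin mouse 8 at 2 weeks likewise had the smallest Ankrd33b fall of its group, -1.97. Its smooth muscle markers averaged 8.47 in the LCA and 5.49 in the RCA. Whether the 2 measures went together over the mice was not tested. The part of macrophages, smooth muscle, neutrophils and the other cell types named here in the differences of the 10 genes was not tested.

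**Figure D4:**
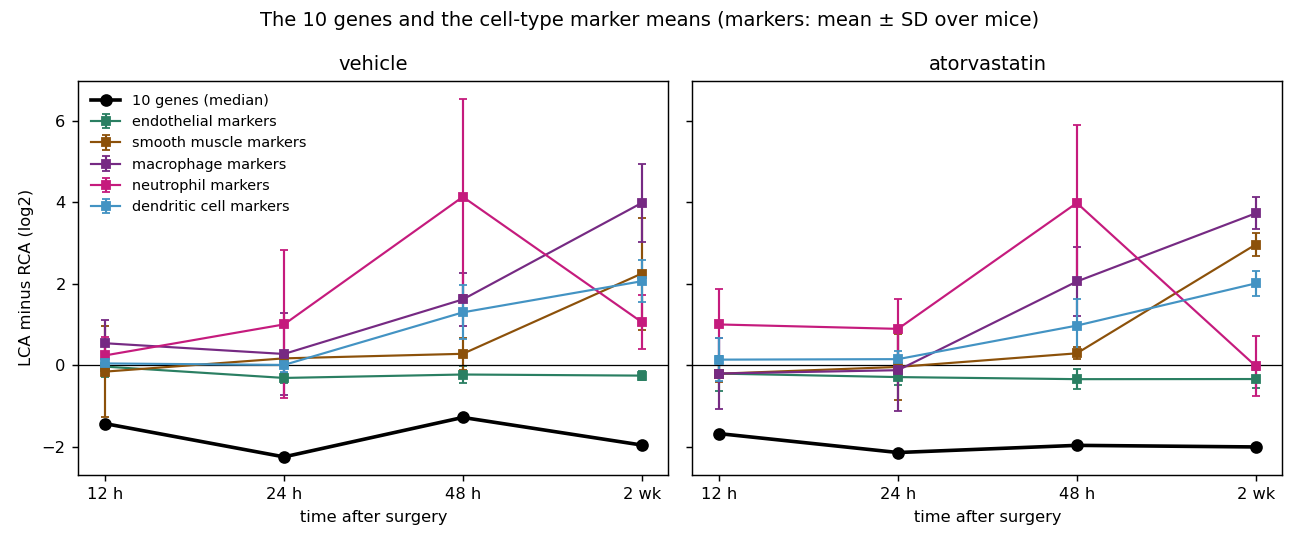
Median LCA minus RCA difference of the 10 genes (black) and mean difference of marker lists (coloured; bars are SDs over mice), in log2 units, by time and treatment. The median of the 10 genes stays between -1.28 and -2.25 from 12 h on, the endothelial mean stays within 0.34 of 0, and neutrophil markers peak at 48 h and macrophage markers at 2 weeks.

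Relatives and partners of the 10 genes were tested in the same limma model, against the same shares of all tested genes. At 12 h only Id1, in both treatments, and Nck1, with atorvastatin, were called among the tested relatives. The 13 genes of the laminar flow list, kept apart here, had 3 falls at 12 h in each treatment.

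Of the 16 BTB zinc finger relatives of Zbtb46 and Zbtb7c, 0, 3, 0 and 0 rose and 0, 1, 3 and 4 fell with vehicle at the 4 times, and 0, 1, 3 and 1 rose and 0, 1, 4 and 4 fell with atorvastatin; their median difference lay between -0.28 and 0.11. Zbtb16, a steroid-inducible repressor, fell in both treatments at 48 h and 2 weeks, most at 48 h with atorvastatin (-2.12, SE 0.38, n = 4, limma adjusted p = 9.88e-05; 3 of 4 mice lower). Bcl6b, an endothelial repressor, fell by 1.11 at 24 h with vehicle (SE 0.28, n = 5, limma adjusted p = 0.00731), and was called in 2 of 8 groups. Bcl6, a repressor known from germinal centre B cells, rose by 0.80 at 24 h with atorvastatin (SE 0.19, limma adjusted p = 0.00501), a call lost without the block or when all its probe sets were averaged, and fell by 0.87 at 2 weeks with atorvastatin (limma adjusted p = 0.000588). Zbtb1 was 0.75 higher at 48 h with atorvastatin (SE 0.27, limma adjusted p = 0.0334), and that call was lost without mouse 6, 8 or 9. Fitted with that group alone, the 48 h atorvastatin calls of Zbtb1, Zbtb16, Txnrd1, Txnip, Nxn, Mob3a, Ptp4a1 and Adam33 named here and below were all lost.

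Among the 6 tested bHLH relatives and partners of Tcf23, 1 fell at each time with vehicle, and 1, 1, 2 and 2 fell with atorvastatin, while 1 rose at 48 h and at 2 weeks with vehicle. Id1, which like Tcf23 is held to restrain E proteins, fell in 7 of 8 groups, to -2.72 at 24 h with vehicle (SE 0.25, n = 5, limma adjusted p = 3.07e-09) and -2.71 with atorvastatin. At 24 h its vehicle level averaged 4.06 in the ligated artery against 6.78 in the other. At 48 h with vehicle its difference was -0.06 (limma adjusted p = 0.866), the group in which Nrm also had its smallest vehicle difference. Id4 fell by 1.26 and Id2 rose by 0.59 at 48 h with vehicle (limma adjusted p = 0.0149 and 0.0108); the Id4 call was lost without mouse 1, 3 or 5 and the Id2 call without mouse 5 or when all its probe sets were averaged.

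Among the nuclear envelope genes tested beside Nrm, 12 in all, 0, 1, 1 and 2 rose and 0, 1, 2 and 3 fell with vehicle, and 0, 0, 0 and 1 rose and 0, 1, 1 and 4 fell with atorvastatin. Tmpo, encoding lamina-associated polypeptide 2, fell by 1.11 at 2 weeks with atorvastatin (SE 0.16, n = 5, limma adjusted p = 1.38e-06). Lmna, the gene of the A-type lamins, fell at 24 h, when Nrm was lowest, by 1.06 with vehicle (SE 0.18, limma adjusted p = 0.000139) and 1.07 with atorvastatin (limma adjusted p = 0.000149), and was higher by 0.61 at 2 weeks with vehicle (limma adjusted p = 0.012). Syne1, encoding the linker protein nesprin-1, rose by 1.05 at 2 weeks with vehicle (SE 0.23, limma adjusted p = 0.000534). Lmnb2 rose by 0.62 at 48 h with vehicle (limma adjusted p = 0.0231), a call lost without mouse 1, 3 or 5.

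Of the 7 thioredoxin-fold and redox partners of Nxnl2, none passed at 12 h or 24 h, 3 rose and 1 fell at 48 h with vehicle and 2 and 2 with atorvastatin, and at 2 weeks 1 rose and 1 fell with vehicle and 1 fell with atorvastatin. Txnip, the thioredoxin inhibitor, fell by 1.98 at 48 h with atorvastatin (SE 0.31, n = 4, limma adjusted p = 1.66e-05) and was called in 4 of 8 groups. Txnrd1, thioredoxin reductase, rose by 1.48 there (SE 0.28, limma adjusted p = 0.000164). Txn2 was 0.95 higher at 48 h with vehicle (limma adjusted p = 0.0468) and Nxn 0.47 lower at 48 h with atorvastatin (limma adjusted p = 0.0351); the calls were lost without mouse 1, 3 or 5 and without mouse 6, 8 or 9, respectively.

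Among the 11 tested MOB proteins and NDR or LATS kinases, 0, 0, 2 and 2 rose and 0, 2, 0 and 1 fell with vehicle, and 0, 0, 1 and 2 rose and 0, 1, 1 and 1 fell with atorvastatin. Stk38l, the NDR2 kinase to which Mob2 binds, fell by 1.23 at 24 h with atorvastatin (SE 0.20, n = 5, limma adjusted p = 6.3e-05) and was called lower in 2 of 8 groups. Mob3a rose in 4 of 8 groups, by 1.39 at 48 h with atorvastatin (SE 0.28, n = 4, limma adjusted p = 0.000251). Stk4, the MST1 kinase, rose by 0.97 at 2 weeks with vehicle (SE 0.17, n = 5, limma adjusted p = 4.75e-05). Mob1a was 0.51 lower at 24 h with vehicle (limma adjusted p = 0.0454), a call lost without any 1 of the 5 mice.

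The closest relatives of Ptp4a3 moved in both directions. Of the 4 tested PRL and CNNM genes, none passed at 12 h, 1 and 2 fell at 24 h with vehicle and atorvastatin, 2 rose at 48 h in each treatment, and at 2 weeks 1 rose in each and 1 fell with atorvastatin. Cnnm4, a magnesium transporter family member bound by PRL phosphatases, was 1.15 lower at 24 h with atorvastatin (limma adjusted p = 0.034, lost without mouse 6, 7, 8 or 10) and 1.89 higher at 2 weeks (SE 0.37, limma adjusted p = 0.00012). Ptp4a1 rose by 1.07 at 48 h with atorvastatin (SE 0.25, n = 4, limma adjusted p = 0.00161), when Ptp4a3 itself read -1.11. Ptp4a2 was 0.24 lower at 24 h with atorvastatin (limma adjusted p = 0.0265), a call lost without mouse 6, 7, 8 or 10.

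The ADAM relatives of Adam15 included the largest rises among the named relatives. Of 10 tested, none passed at 12 h or 24 h, 3 rose and 3 fell at 48 h with vehicle, 4 and 3 with atorvastatin, 3 rose at 2 weeks with vehicle, and 3 rose and 1 fell with atorvastatin. Adam12, a metalloprotease of mesenchymal cells, rose by 5.25 at 48 h with vehicle (SE 1.04, n = 5, limma adjusted p = 0.00018), from 3.38 in the RCA to 8.63. Adam19 rose by 3.01 at 2 weeks with vehicle (SE 0.38, limma adjusted p = 9.68e-08). Adam33 fell by 1.37 at 48 h with atorvastatin (SE 0.41, n = 4, limma adjusted p = 0.00968, lost without mouse 9) and was 1.03 higher at 2 weeks with atorvastatin (limma adjusted p = 0.0296), and Adam22 fell by 0.82 at 48 h with vehicle (limma adjusted p = 0.0192, lost without mouse 1, 3 or 5). Adam12 and Adam19 rose when macrophage markers did; that relation was not tested.

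Of the 8 tested scaffold relatives and partners of Caskin2, Nck1, an SH2 and SH3 adaptor, fell in 7 of 8 groups, most at 2 weeks with atorvastatin (-1.53, SE 0.18, n = 5, limma adjusted p = 2.01e-08). At 12 h it was -0.51 with vehicle (limma adjusted p = 0.152) and -0.69 with atorvastatin (limma adjusted p = 0.0326). Nck2, its paralog, rose by 1.03 at 2 weeks with atorvastatin (SE 0.13, limma adjusted p = 8.74e-08), and the receptor phosphatase Ptprs by 1.09 (SE 0.20, limma adjusted p = 3.45e-05), although Ptprs was 0.59 lower at 48 h with atorvastatin (limma adjusted p = 0.037). Ptprd fell by 1.06 at 48 h with vehicle (limma adjusted p = 0.0323), a call lost without mouse 1, 3 or 5. The list had 0, 0, 1 and 2 rises and 0, 1, 2 and 1 falls with vehicle and 0, 0, 1 and 2 rises and 1, 1, 2 and 1 falls with atorvastatin. The ankyrin relative of Ankrd33b did not pass the filter on low values.

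For comparison, 13 genes associated with laminar flow gave 3, 8, 11 and 10 falls with vehicle and 3, 8, 10 and 11 with atorvastatin, with 1 rise at 48 h and at 2 weeks in each. Their median difference went from -0.45 at 12 h to -1.25 at 2 weeks with vehicle and from -0.45 to -1.30 with atorvastatin. Klk10, a secreted protease of the kallikrein family, fell by 6.14 at 2 weeks with atorvastatin (SE 0.30, n = 5, limma adjusted p = 2.52e-17). Klf4 fell by 3.19 in the same group (SE 0.33, limma adjusted p = 2.15e-09), and Hmox1, encoding heme oxygenase, rose by 2.31 (SE 0.48, limma adjusted p = 0.000258).

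The genes whose 8 group means lay closest to each of the 10 were found over the tested genes outside the list. The measure was the root mean square difference, used as a description. Tcf23 was nearest to Klf2 (0.64 log2 units) and the Notch ligand gene Dll1 (0.65), and Nrm to Dhh (0.90), a hedgehog ligand gene, and Klf2 (1.02). Zbtb7c lay close to Dll1 (0.27) and Dhh (0.45), and Mob2 to Dhh (0.38) and the phosphatase gene Dusp8 (0.66). Klf2 itself differed by -2.39, -3.01, -2.96 and -1.34 with vehicle and by -3.04, -2.79, -2.59 and -1.86 with atorvastatin. These values were close to those of Tcf23 through 48 h and less low at 2 weeks. Dll1 differed by -1.71 to -3.14 over the 8 groups. Nxnl2 was nearest to Prrt4 (0.50) and Fgfr3 (0.52), and Ptp4a3 to Rflnb (0.58) and Crip1 (0.62), both of which were also lowest at 24 h and within 0.64 of the control at 2 weeks. Zbtb46 was nearest to Plec (0.10), encoding the cytoskeletal linker plectin, and Klf3 (0.17). Adam15 was nearest to Ifitm10 (0.20) and Hyal2 (0.24), Caskin2 to Slc9a3r2 (0.18) and Slc12a7 (0.18), and Ankrd33b to Lsr (0.31), a tight-junction gene, and Krt80 (0.36). Lsr and Krt80 differed by -0.62 and -0.74 at 12 h and by -2.78 and -3.52 at 2 weeks with vehicle. Among the 10 genes themselves the closest pair was Zbtb46 and Caskin2, at 0.20. Some members lay closer to each other than to the outside genes named. Tcf23 was 0.59 from Zbtb7c, nearer than Klf2. Nrm was 0.73 from Mob2 and 0.85 from Zbtb7c, both nearer than Dhh. Mob2 was 0.65 from Zbtb7c, nearer than Dusp8.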

How the data were processed

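RNA was profiled on Affymetrix arrays with biotin-labelled cRNA, per the labels' protocols. The deposited values are log2 expression per probe set (1.79 to 13.235), made with RMA per the submitters' processing notes; no source used here gives its software or probe-set definition. RMA includes between-array quantile normalisation, which assumes similar overall distributions. Extraction and profiling were done in 4 batches that the labels do not tie to samples, so batches were not tested; the leading number in the sample titles, shared by both arteries of a mouse, was used as a block in an alternative.

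Of 45118 probe sets, 81 controls were left out, 28898 had 1 symbol, 551 several and 15588 none. A gene was tested if its probe set exceeded the array median on at least 4 arrays. limma 3.58.1 (R 4.3.3; lmFit, eBayes) was fitted to the LCA minus RCA difference of each mouse, and to LCA and RCA values apart, with Benjamini-Hochberg adjustment over 11344 genes and a threshold of 0.05; no count model was used. Both arteries came from the same mouse, whose number is in both titles, so the mouse is the pairing block. The fits were tested on simulated data. Python 3.11.15 with pandas 2.3.3 and matplotlib 3.10.9 made tables and figures. The 5 mice per group limit the precision.

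The 10 genes and all gene lists were chosen with earlier results of these data known. Named genes are the 10. From each list of relatives, the called genes with the 2 largest rises and 2 largest falls over the 8 groups are named. For each of the 10, the 2 tested genes outside the list with the closest group means are named, predicted genes aside. Klf2 values, and those of Id1, Nck1, Lmna, Bcl6, Ptprs and Adam33 in further groups, were added after they were seen. Alternatives were a further quantile normalisation, median centring, no filter, a stricter filter (at least 20 arrays), the mean of all probe sets, eBayes with trend and robust settings, each group fitted alone, no block, and leaving out each mouse. Zbtb7c sequence is not reported here.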

Additional observations from a re-analysis of the deposited data

Results flagged for a closer look

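In 7 of 240 sets of 4 or 5 values (each gene's LCA, RCA and difference in each group), a single value stood apart from the rest of its group by Dixon's test; chance gives about 1 in 20. The Ankrd33b difference of atorvastatin mouse 8 at 2 weeks was -1.97, where the others were -4.80 to -4.12. The Mob2 difference of vehicle mouse 2 at 24 h was -1.81 (others -3.01 to -2.78), and the Adam15 difference of vehicle mouse 1 at 24 h was -1.04 (others -1.31 to -1.24). Caskin2 in atorvastatin mouse 8 at 12 h had a difference of -1.63 (others -0.91 to -0.75) and an LCA level of 7.78 (others 8.21 to 8.35). That LCA array had a Gapdh end difference of 6.21, where the group's lowest was 4.13. The Tcf23 RCA level of atorvastatin mouse 6 at 48 h was 7.51 (others 6.08 to 6.32), and the Tcf23 LCA level of vehicle mouse 2 at 2 weeks was 3.47 (others 3.67 to 3.74).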

How the results depend on the processing

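The direction of all 80 gene-by-group differences was kept under every alternative except leaving out single mice from Ptp4a3 with vehicle at 48 h, which gave 0.01, 0.16 and 0.17 without mouse 2, 3 and 4 and -0.81 without mouse 5. Nothing is read from the kept direction, since the list was chosen for falls. The filters, the eBayes settings and dropping the block also cannot change a mean difference. Apart from leaving out mice, 21 of 400 values moved by at least the SD over mice. Averaging all probe sets of a gene moved the median of the 10 genes to -0.94, -1.46 and -1.20 with vehicle (12 h, 24 h, 2 weeks) and to -1.13, -1.49 and -1.68 with atorvastatin (12 h, 24 h, 48 h); that average includes dim probe sets. Leaving out a mouse moved it to between -2.0 and -1.77 with atorvastatin at 48 h. Relative to the endothelial markers 6 rather than 7 genes were lower in every mouse.

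No gene of the 10 was called for atorvastatin under any alternative. Its mean effect over the 4 times changed sign for Adam15 (-0.02; 0.01 after a further quantile normalisation; -0.062 to 0.018 without 1 mouse) and for Nxnl2 (0.05; -0.045 to 0.114 without 1 mouse).

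Counts over all genes depended on pooling the spread. Fitted alone, the vehicle groups gave 72 calls at 12 h and 1931 at 48 h (271 and 4109 pooled), and the atorvastatin groups 12 and 215 (191 and 3612). Leaving out 1 mouse gave 147 to 195, 898 to 1367 and 2728 to 4664 calls with vehicle at 12 h, 24 h and 48 h, and 85 to 323, 824 to 1222 and 2092 to 4336 with atorvastatin.

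Without the pairing block (no replicate block), artery calls were 211, 1362, 3891 and 2959 with vehicle and 155, 1232, 3387 and 3182 with atorvastatin (271, 1620, 4109, 3148 and 191, 1485, 3612, 3396 with it), and treatment calls on the difference at 2 weeks went from 2 to 0. Treatment calls were few throughout. On the difference they were 0 at 12 h (1 in the main fit) with averaged probe sets or title numbers as block, 0 at 2 weeks under the stricter filter and 1 with title numbers; leaving out 1 mouse gave 0 to 1 and 1 to 12. In the LCA at 2 weeks they were 2 after a further quantile normalisation, and without 1 mouse 0 to 4 at 12 h and 0 to 7 at 2 weeks. In the RCA they were 0 at 12 h with averaged probe sets or title numbers, 0 at 2 weeks after quantile normalisation or with title numbers, 2 at 2 weeks with trend and robust settings, 2 at 48 h with title numbers, and 0 (no filter) or 1 (title numbers) in the mean of times. Without 1 mouse the RCA gave 0 to 194, 0 to 2, 0 to 2, 0 to 2 and 0 to 6 at 12 h, 24 h, 48 h, 2 weeks and in the mean. The cause was not tested for these changes.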
